A study of Homo sapiens with 4 samples.

Results

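HOXA2 expression is described here in 4 human lines of acute lymphoblastic leukaemia (ALL) of the B-cell precursor type. From the HOXA cluster, 9 genes were sought: HOXA2, HOXA3, HOXA4, HOXA5, HOXA6, HOXA7, HOXA9, HOXA10 and HOXA11. Members were all probe sets whose gene symbol field in the platform annotation contains one of these names, alone or beside other symbols. Of 32968 probe sets, 1 met this rule, a probe set with the single symbol HOXA2, and 0 listed a member together with another gene. The annotation used here lists no probe set for the other 8 genes, which are not analysed here, so the values below speak for HOXA2 and not for the cluster. The HOXA2 values are set beside all 32968 probe sets, of which 11906 have no symbol listed. Gene lists are compared with the 18377 genes that have a probe set of their own, or with all probe sets where so stated.

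Total RNA was hybridised to Affymetrix whole-transcript arrays, which read probes along the whole length of a transcript, with a single array for each line. The translocation t(4;11), which rearranges the MLL gene (now named KMT2A), is present in RS4;11 and in SEM. It is absent from NALM6 and from REH, both also precursor B-cell lines. All were grown to below confluency in RPMI medium with serum, and the labels name no drug. Each line is 1 established culture, so that a group of 2 lines differs from the other in everything that distinguishes these cultures, and p-values measure the spread between lines. REH is known for the ETV6-RUNX1 fusion and NALM6 for a DUX4 rearrangement. The deposited values are on a log2 scale, and the array medians lay between 6.40 and 6.46. Of 7 measured B-cell precursor markers, 7 were above the array median in RS4;11 and NALM6 and 6 in SEM and REH. In SEM the recombinase gene RAG1 was below it, and in REH the surrogate light chain gene VPREB1.

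HOX genes encode homeodomain transcription factors that give cells their position along the body axis, and they lie in clusters whose order matches the order of their use. HOXA2 sits near the 3′ end of the HOXA cluster, and in the mouse its homologue is needed to pattern the hindbrain and the second branchial arch. In blood, HOXA genes are active in stem and progenitor cells, and KMT2A fusion proteins are known to keep the middle and posterior genes of the cluster active in leukaemia.

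The RefSeq promoter window of HOXA2 is shown because it is the regulatory sequence of the measured gene, and that of HOXA-AS2, a long noncoding RNA of the same cluster that was also measured, is set beside it. Each window holds 250 bases before and 50 bases from the start site, 5′ to 3′ on the strand of the gene, in GRCh38.p14. The HOXA2 window lies at chr7:27102634-27102933 on the minus strand, and the HOXA-AS2 window at chr7:27121669-27121968 on the plus strand. Capitals mark every match, on either strand, to 5 motifs: TATAAA (the TATA box), TGACAG (bound by MEIS and PKNOX proteins), TGATNNAT (bound by PBX-HOX pairs), TAATTA (a homeodomain core) and CCAAT (the CCAAT box).
HOXA2: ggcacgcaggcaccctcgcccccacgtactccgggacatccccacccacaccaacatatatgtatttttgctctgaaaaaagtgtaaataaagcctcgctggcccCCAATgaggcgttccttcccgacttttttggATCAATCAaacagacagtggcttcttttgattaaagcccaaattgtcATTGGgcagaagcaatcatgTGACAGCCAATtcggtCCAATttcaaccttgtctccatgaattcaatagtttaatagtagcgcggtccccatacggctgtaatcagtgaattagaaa
HOXA-AS2: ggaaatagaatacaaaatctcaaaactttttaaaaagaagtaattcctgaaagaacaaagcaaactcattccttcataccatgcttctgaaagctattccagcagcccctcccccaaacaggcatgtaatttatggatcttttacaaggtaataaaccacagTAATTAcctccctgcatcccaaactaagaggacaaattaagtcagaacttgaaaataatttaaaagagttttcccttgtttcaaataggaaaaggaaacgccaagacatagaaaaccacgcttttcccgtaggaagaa

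The HOXA2 window held 1 match to TGACAG, 1 match to TGATNNAT on the opposite strand and 4 matches to CCAAT, 1 of them on the opposite strand. The TGACAG match ends where a CCAAT match begins, and no matches overlap. It held no TATAAA or TAATTA. Among 35116 RefSeq windows of the same length, 15.8% held TGACAG, 7.40% held TGATNNAT and 34.6% held CCAAT on either strand. The HOXA-AS2 window held 1 TAATTA, a palindrome found in 4.84% of windows, and none of the other motifs, of which TATAAA is found in 11.5% of windows. HOXA2 had 11 CG dinucleotides in its window and HOXA-AS2 had 3, with a median of 14 over all windows. These matches describe the letters of the windows and say nothing of binding in these lines.

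HOXA2 was above the array median in both translocation lines and in REH, and below it in NALM6. Its log2 value was 7.72 in RS4;11 and 7.30 in SEM, against 5.32 in NALM6 and 8.19 in REH. The translocation lines therefore lay between the other lines, and the groups overlapped. On each array, the share of probe sets with a lower value than HOXA2 was 62.5% for RS4;11 and 58.5% for SEM, against 34.3% for NALM6 and 67.4% for REH. Values near 5 are those of the 25th percentile of the arrays (4.97 to 5.02), so a fold against NALM6 may be compressed. In RNA from a whole culture, fewer cells with HOXA2 transcripts and less transcript per cell cannot be told apart.

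**Figure D1:**
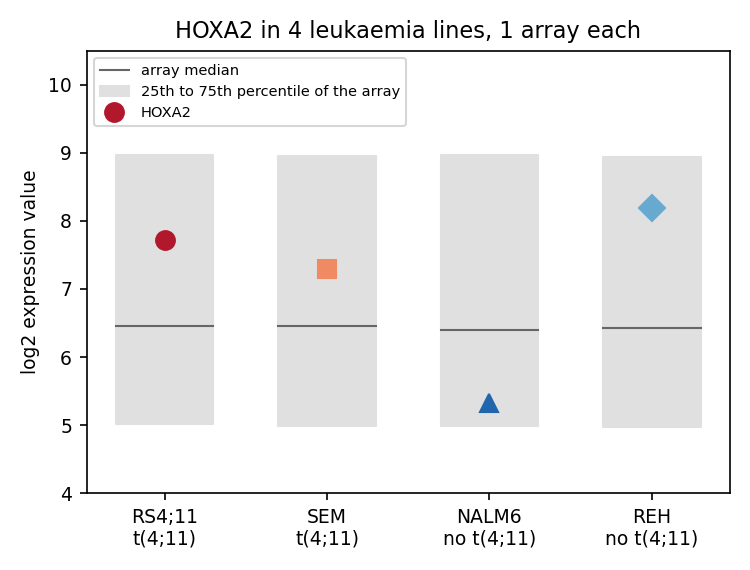
HOXA2 log2 expression value in each line (1 point per array), with the 25th to 75th percentile of all probe sets of that array as a grey box and the array median as a line. HOXA2 is above the median in RS4;11, SEM and REH and below it in NALM6, at 5.32.

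The study set lines with a rearranged MLL gene against lines lacking it. HOXA2 averaged 7.51 ± 0.30 in the translocation lines and 6.76 ± 2.03 in the lines without the translocation (log2, SD, n = 2 lines each). The log2 difference was 0.75 (SE 1.09, 95% confidence interval -2.44 to 3.94), which did not pass limma's test with Benjamini-Hochberg adjustment over all probe sets (adjusted p = 0.867, unadjusted p = 0.534). The interval covers a level in the translocation lines from 5.43-fold lower to 15.4-fold higher, so that these arrays do not settle a direction. Of all 32968 probe sets, 12 (0.0364%) passed this test. A fit with a line left out has a single line in 1 group, so its calls are not compared with these. An exact two-sided permutation test of HOXA2 alone gave p = 1, where 2 lines against 2 cannot go below 0.33. HOXA2 was not among the 430 probe sets (1.3%) in which the groups were separated by at least 2-fold in either direction, nor among the 41.5% in which they did not overlap. The sign of the difference rested on NALM6. Without NALM6 it was -0.68, and without REH it was 2.18, each with a single line left in that group.

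Between single lines, with 1 array each and hence no test, the log2 difference was 2.40 between RS4;11 and NALM6 (5.27-fold), 1.97 between SEM and NALM6 (3.92-fold) and -2.87 between NALM6 and REH (7.29-fold). Differences at least as large, in either direction, were found in 1.63%, 2.48% and 1.17% of all probe sets between the same lines. The remaining lines lay close to each other in comparison. HOXA2 differed by 0.43 between RS4;11 and SEM, by -0.47 between RS4;11 and REH and by -0.89 between SEM and REH, and 16.7%, 23.0% and 9.99% of probe sets differed by as much in either direction. From the lowest, the order of the lines was NALM6, SEM, RS4;11 and REH, and the spread within a line is not known. NALM6 was the lowest line by at least the 1.97 of HOXA2 in 103 probe sets (0.312%), and by at least 2-fold in 274 (0.831%).

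HOX genes of the other clusters with a probe set of their own varied less between the lines. HOXA2 ranged over 2.87 on the log2 scale from its lowest to its highest line, as did or exceeded 2.95% of all probe sets. Of 28 genes of the HOXB, HOXC and HOXD clusters, 26 were measured by a probe set of their own, and their largest range over the lines was 0.61 (HOXC9). None of the 26 ranged over 2-fold, against 19.3% of all genes, while a probe set shared by HOXC4 and HOXC6 ranged over 1.20 on the log2 scale, which is more than 2-fold. All 26 stayed below the median of all values in every line, with log2 values between 4.34 and 5.94. At such values a difference between lines can be compressed, and whether these transcripts are present was not tested, since the deposited values carry no detection call.

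**Figure D2:**
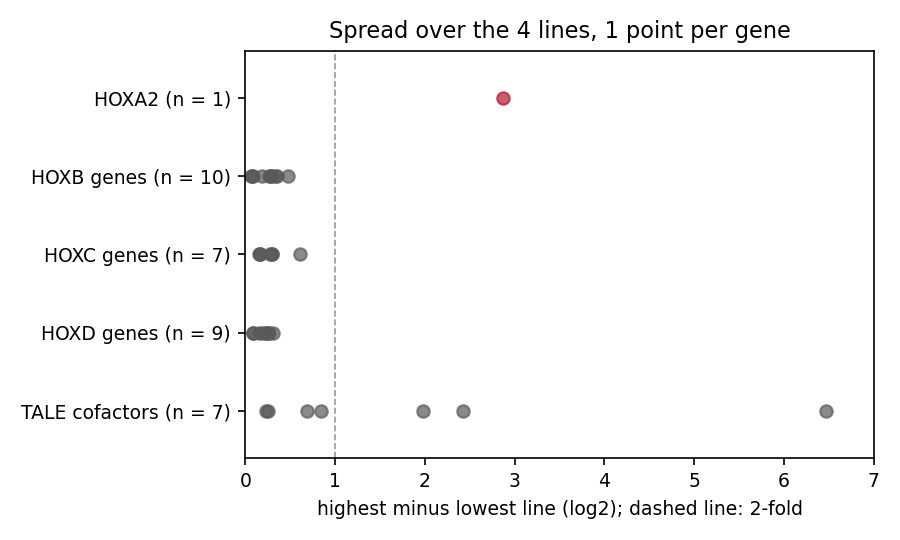
Difference between the highest and the lowest of the 4 lines (log2, horizontal axis) for HOXA2, for genes of the HOXB, HOXC and HOXD clusters and for TALE cofactors, 1 point per gene. HOXA2 ranges over 2.87, and each of the 26 genes of the other clusters stays under the dashed line at 2-fold.

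Between the groups, 0 of the 26 genes of the other clusters passed limma's test, against 0.049% of all genes, and 0 were at an unadjusted p under 0.05, against 9% of all probe sets. None of them was separated by 2-fold. Their median log2 difference was -0.0057, against 0.013 over all genes. The differences furthest from 0 were -0.21 for HOXB9, -0.21 for HOXC9, 0.19 for HOXB4, a regulator of blood stem cells, and 0.16 for HOXC13, with adjusted p between 0.736 and 0.841. The shared probe set of HOXC4 and HOXC6 was at 6.04 in RS4;11 and 4.92 in SEM, against 4.84 in NALM6 and 4.97 in REH. RS4;11 was thus the 1 line above the rest (log2 difference between the groups 0.58, SE 0.43, limma adjusted p = 0.753).

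Measured genes next to HOXA2 on chromosome 7 differed in which lines were high. HOXA-AS2, the 1 noncoding gene of the locus with a listed probe set of its own among 9 sought, was at 4.84 in RS4;11 and 4.87 in SEM, against 4.81 in NALM6 and 5.10 in REH. It was thus flat and dim where HOXA2 varied (log2 difference -0.10, SE 0.14, limma adjusted p = 0.862). SKAP2, which encodes an adaptor protein of Src-family kinases, is the nearest measured gene on the other side. It was at 10.32 in RS4;11 and 8.41 in SEM, against 5.17 in NALM6 and 10.34 in REH. As with HOXA2, NALM6 was the lowest line and the groups overlapped (log2 difference 1.61, SE 2.07, adjusted p = 0.851). REH was the highest line for both genes, but for SKAP2 it was nearly level with RS4;11, and SEM lay well below them. Another probe set that lists SKAP2 together with immunoglobulin heavy chain symbols had a different order, with 8.71 in RS4;11 and 7.06 in SEM, against 7.52 in NALM6 and 8.26 in REH, and its signal cannot be assigned to SKAP2. EVX1, a homeobox gene beyond the 5′ end of the cluster, ranged over only 0.32 and stayed below the median of all values.

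Among the 10 genes listed as flanking the locus, all were measured. The list was chosen with earlier results of these data known. In limma's test 0 passed, against 0.049% of all genes, and 5 were at an unadjusted p under 0.05, against 9% of all probe sets. The groups were separated by at least 2-fold in 2 of them, against 1.84% of all genes. SNX10, a sorting nexin of endosomes, was at 8.97 in RS4;11 and 9.28 in SEM, against 4.91 in NALM6 and 4.78 in REH, and so was high in both translocation lines alone (log2 difference 4.28, SE 0.15, adjusted p = 0.0508). HIBADH, an enzyme of valine breakdown, was at 8.38 in RS4;11 and 7.99 in SEM, against 9.68 in NALM6 and 10.10 in REH, with the opposite order of the groups (log2 difference -1.71, SE 0.23, adjusted p = 0.317). TAX1BP1, an autophagy receptor gene and the next measured gene beyond HIBADH, lay the same way, with a difference of -1.04 (SE 0.14, adjusted p = 0.319). The median difference over the 10 genes was -0.18, and 6 of them ranged over 2-fold across the lines, against 19.3% of all genes.

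**Figure D3:**
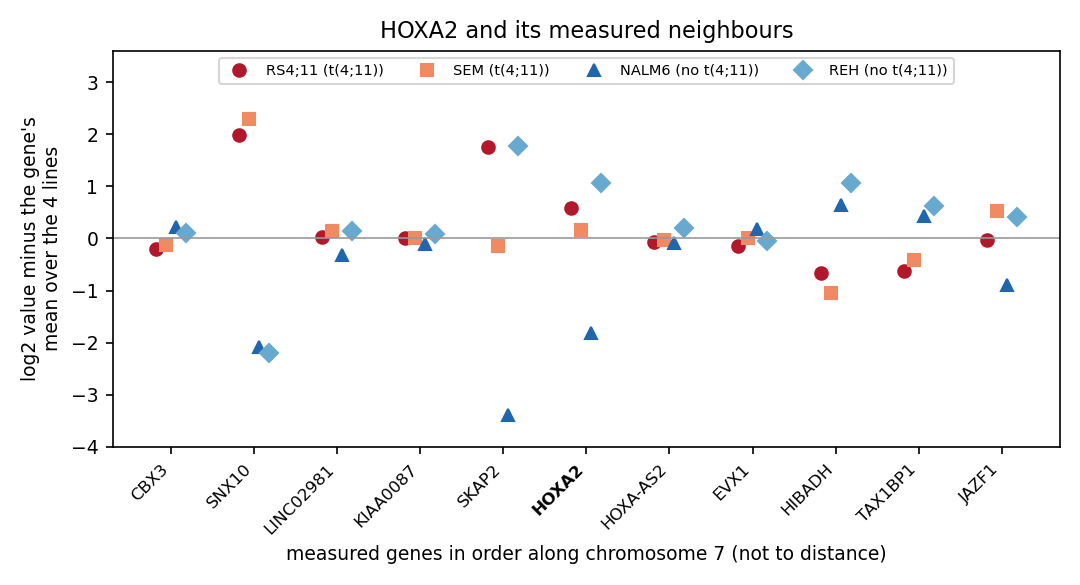
Log2 value of each line minus the gene's mean over the 4 lines (vertical axis) for HOXA2 and the 5 nearest measured genes on each side, in RefSeq order along chromosome 7 and not to distance. NALM6 is the lowest line for both HOXA2 and the probe set with SKAP2 as its single symbol, while SNX10 is high in RS4;11 and SEM and HIBADH is low in them.

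HOX proteins bind DNA together with TALE homeodomain cofactors, the MEIS, PBX and PKNOX proteins. Of 9 such genes, 7 were measured by a probe set of their own. MEIS1 was the 1 of them that passed limma's test, against 0.049% of all genes. It was at 11.30 in RS4;11 and 11.20 in SEM, against 4.92 in NALM6 and 4.82 in REH. The log2 difference was 6.37 (SE 0.10, limma adjusted p = 0.0219). MEIS1 was also the 1 gene of the list separated by at least 2-fold, against 1.84% of all genes, and its nearest lines differed by 6.27 (log2). A fit with a line left out has a single line in 1 group, so it cannot show whether this call rests on 1 line. PBX3 was at 11.70 in RS4;11 and 10.98 in SEM, against 11.79 in NALM6 and 9.82 in REH, with its lowest value in the line where HOXA2 was highest (log2 difference 0.54, SE 0.79, adjusted p = 0.872). MEIS2 was likewise lowest in REH, at 4.74, against 6.66 to 7.17 in the other lines (log2 difference 0.89, SE 0.93, adjusted p = 0.81). PKNOX1 did not overlap between the groups, as 41.5% of all probe sets did not, with a log2 difference of 0.71 (SE 0.12, adjusted p = 0.365). The median log2 difference over the 7 genes was 0.54, which is the value of PBX3, against 0.013 over all genes.

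Of 27 genes that regulate the HOXA locus or belong to the KMT2A, elongation and Polycomb complexes, 24 were measured by a probe set of their own. Shared probe sets were not counted. In limma's test 0 passed, against 0.049% of all genes, and 3 were at an unadjusted p under 0.05, against 9% of all probe sets. None was separated by 2-fold (1 without NALM6), against 1.84% of all genes, and 2 ranged over 2-fold across the lines, against 19.3%. Their median log2 difference was -0.01. KDM6A and KDM6B, demethylases of the Polycomb mark on histone H3, lay in opposite directions, with differences of 0.72 (SE 0.17, adjusted p = 0.462) and -0.72 (SE 0.32, adjusted p = 0.643). The Polycomb subunit gene CBX7 differed by -0.63 (SE 0.27, adjusted p = 0.627), and KAT7, a histone acetyltransferase, by 0.55 (SE 0.09, adjusted p = 0.365). The caudal-type genes CDX1, CDX2 and CDX4, activators of HOX genes in embryos and in some leukaemias, stayed below the median of all values in every line.

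Of 20 genes linked to HOXA9 and MEIS1 in leukaemia from general knowledge, 19 were measured by a probe set of their own. Shared probe sets were not counted, and the list was chosen with earlier results of these data known. In limma's test 0 passed, against 0.049% of all genes, and 4 were at an unadjusted p under 0.05, against 9% of all probe sets. The groups were separated by at least 2-fold in 2 genes, against 1.84% of all genes, a count of 6 without RS4;11 and 4 without NALM6. CAMK2D, a calcium-dependent kinase, was at 12.22 in RS4;11 and 11.17 in SEM, against 6.61 in NALM6 and 10.12 in REH (log2 difference 3.33, SE 1.38, adjusted p = 0.62). DNTT, the polymerase that adds bases at V(D)J joints, was at 6.88 in RS4;11 and 5.11 in SEM, against 11.54 in NALM6 and 12.43 in REH (log2 difference -5.99, SE 0.75, adjusted p = 0.297). The receptor kinase gene FLT3 was at 11.34 in RS4;11 and 12.82 in SEM, against 8.46 in NALM6 and 10.35 in REH (log2 difference 2.68, SE 0.91, adjusted p = 0.552). LYN, a Src-family kinase gene, was at 7.76 in REH and 11.27 or more in the other lines. The median log2 difference of the list was 0.02, and 13 of its 19 genes ranged over 2-fold across the lines, against 19.3% of all genes.

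The genes most like HOXA2 across the 4 lines were RASGRP1, SLC37A3 and RNF144A, out of 18376 genes. Likeness was the root mean square difference between profiles, each centred on its own mean over the 4 lines, and it was 0.13 for RASGRP1, 0.14 for SLC37A3 and 0.15 for RNF144A on the log2 scale. RASGRP1, a lymphocyte exchange factor that activates Ras, was at 10.37 in RS4;11 and 10.16 in SEM, against 7.83 in NALM6 and 10.82 in REH. SLC37A3, which encodes a membrane transporter, was at 8.69 in RS4;11 and 8.49 in SEM, against 6.32 in NALM6 and 8.98 in REH. RNF144A, a ubiquitin ligase gene, had 7.48 in RS4;11 and 7.48 in SEM, against 5.20 in NALM6 and 8.16 in REH. Each had its lowest value in NALM6, by 2.17 to 2.34, and its highest in REH, which follows from their choice by likeness to HOXA2. The profiles rest on 4 arrays. The same 3 genes were named when the largest difference in any line was used as the measure instead.

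**Figure D4:**
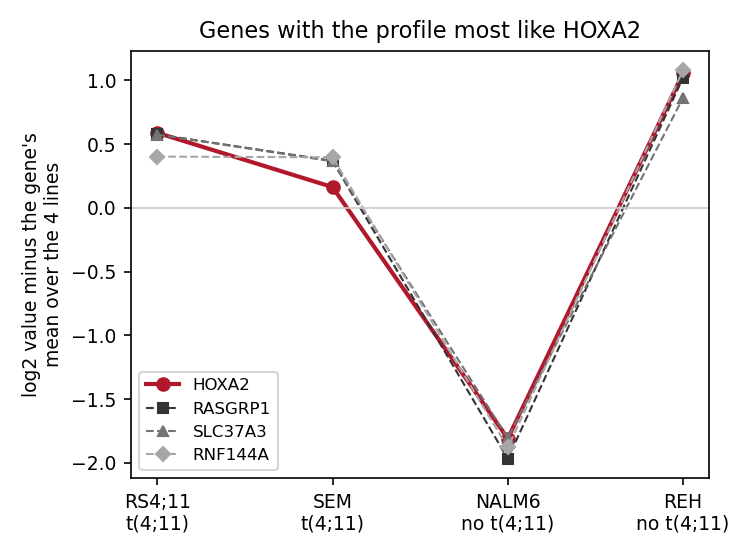
Log2 value minus the gene's mean over the 4 lines (vertical axis) for HOXA2 and the 3 genes with the most similar profile. All 4 genes are lowest in NALM6 and highest in REH, with RS4;11 and SEM between, which for the 3 follows from their choice by likeness.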

How the data were processed

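The deposited log2 values come from RMA, which corrects background, equalises array distributions by quantiles and summarises probes, and from Partek, per the submitters' processing notes. For neither are version or role given in the sources used here, nor is the genome build. The log2 scale was inferred from values between 3.44 and 14.3. No detection calls come with it, and the number of arrays limits precision.

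Of 32968 probe sets, 19310 had 1 symbol in the platform annotation, 1752 several and 11906 none listed. Group differences, translocation lines minus the others, were fitted over all probe sets with limma 3.58.1 (lmFit, eBayes) in R 4.3.3 without covariates, at an adjusted p of 0.05, with 2 residual and 1.54 prior degrees of freedom. Tests are two-sided. Each listed gene was represented by its 1-symbol probe set with the highest mean. Separation means that the nearest lines of the 2 groups differ by at least 2-fold. Windows came from RefSeq. Python 3.11.15, pandas 2.3.3 and scipy 1.17.1 made the other tables. In 5 simulations of this comparison over 32968 probe sets, limma called 71.4% of probe sets changed 4-fold and 97.2% of those changed 64-fold, with 10.2 unchanged ones called. The noise was normal and independent, with each probe set's moderated SD, and the changed probe sets were drawn at random. In the data the median SE over all probe sets was 0.14, against 1.09 for HOXA2. The shares therefore do not give the power for HOXA2.

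The members and lists were chosen with earlier results of these data known. The genes named are HOXA2, the 3 most like it, and, per list, those called, those separated and up to 4 with the largest differences. The shared probe sets of HOXC4 with HOXC6 and of SKAP2, EVX1, LYN's order, the CDX genes and the markers below the median were picked after their values were seen. Alternatives were repeated quantile normalization, median centring, removal of dim probe sets, other feature sets, other variance moderation, other thresholds and leaving out each line.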

Additional observations from a re-analysis of the deposited data

How the results depend on the processing

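The HOXA2 difference of 0.75 stayed between 0.70 and 0.75, and did not pass limma's test, under repeated quantile normalization, median centring, removal of dim probe sets, the other feature sets and the other variance moderations. Leaving out 1 line moved it between -0.68 (without NALM6, the 1 reversal) and 2.18 (without REH), with 0.54 without RS4;11 and 0.96 without SEM. The count of HOXA probe sets separated by 2-fold was 0, and 0 to 1 when a line was left out, the 1 being without REH. The number of all probe sets called, 12, was 20 with arrays centred on their medians, 21 without dim probe sets, 4 with symbol-bearing probe sets only or 1 probe set per gene, 3 with an intensity trend, 1 without moderation and 35 at an adjusted p of 0.1. Calls are not compared for fits with a line left out, which have a single line in 1 group. In the leave-one-out fits, separated genes numbered 1 to 3 for the TALE cofactors (3 without NALM6), 0 to 1 for the regulators of HOXA (1 without NALM6) and 2 to 6 for the HOXA9 and MEIS1 list (6 without RS4;11, 4 without NALM6). No paired analysis applies, because the 4 samples are 4 different lines with no pairing between the groups.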
